A study of Homo sapiens with 6 samples.

Results

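The G2 and mitosis genes are the 55 genes whose products carry a cell from late G2 through chromosome segregation to cytokinesis. They were taken by symbol from a fixed list, and all 55 are among the 14987 genes of the deposited expression table. The data are 6 mRNA libraries of HCT116, a human cell line long established from a colorectal carcinoma. NC cells, labelled wild type, gave 1 library from control medium and 1 from medium without glucose for 6 h. Cells with YAP knockdown gave 2 libraries in each medium, 1 from the construct shYAP1 and 1 from shYAP3. How the constructs were delivered, whether a line is 1 clone and what the NC cells carry are not given in the sources used here. YAP is the transcriptional coactivator restrained by the Hippo kinases, and the design asks how its loss bears on the expression response to glucose deprivation. Values below are the deposited normalized values per gene, given for the 3 lines in the order NC, shYAP1 and shYAP3. Changes are log2 differences of the value plus 1, which understate the change of low genes.

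The libraries held between 16912634 and 22161075 listed reads, and 3 reads were worth 0.122 to 0.208. YAP1, the knockdown target, read 188, 35.7 and 38.2 in control medium and 154, 20.3 and 18.2 after deprivation (log2 −2.63 in shYAP against NC cells, SE 0.17, limma adjusted p = 0.00082). Keratin and EPCAM transcripts marked the cells as epithelial, with KRT8 between 1642 and 3250. Of the other listed epithelial markers CDH1 lay between 55.1 and 91.9, CDX2 between 5.75 and 14.2 and VIL1 between 1.12 and 3.72. CDX2 was lower after deprivation in each line. COL3A1, CD14 and KDR, defining markers of fibroblasts, monocytes and endothelium, were at 0.160 or below in every library. Of the other markers of such cells PDGFRB and VWF were at 0.974 or below, COL1A1 lay between 2.98 and 10.1, CD68 between 4.80 and 15.9 and HLA-DRA between 3.04 and 10.5. CD68 and HLA-DRA rose after deprivation and COL1A1 fell in limma, and their part in the results below was not tested. The summed fibroblast, leukocyte and endothelium markers held at most 0.00123%, 0.00224% and 0.000113% of a library's reads. No label states separate cultures for a group, so p-values measure only how these libraries spread, which may be technical in part. Where the constructs are joined as shYAP, that spread includes the difference between them. NC has 1 library per medium, and in the knockdown test these stand in for replicates.

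Cyclin B with CDK1 drives entry into mitosis, the spindle checkpoint holds anaphase until every kinetochore is attached, and the anaphase-promoting complex with CDC20 then destroys cyclin B and securin. Most genes of the program are transcribed in G2 under the MuvB complexes, which repress them as DREAM in resting cells and activate them with MYBL2 and FOXM1 in cycling cells. These complexes bind the CHR element, and NF-Y binds the neighbouring CCAAT boxes. Their transcripts are most abundant in cells in G2 and mitosis. Fewer such cells and less RNA per cell cannot be told apart in these bulk libraries.

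The promoters are shown because they carry what the members share outside their expression. RefSeq promoter windows (GRCh38.p14, 250 bases before to 50 after a gene's start) were found by symbol for 47 of the 55 members. AURKA, BIRC5, BUB3, FOXM1, RACGAP1, TPX2, TTK and UBE2C were not matched. A CHR element, searched as TTTGAA or TTTAAA on both strands, was in a window of 42 of the 47 members (89.4%, or 78.0% of their 59 windows), against 21.1% of the 9276 tested genes with a window and 24.0% of all windows of the table. A CCAAT box, searched as CCAAT on both strands, was found for 36 members (76.6%), against 43.4% of tested genes and 34.6% of all windows. Both were found for 31 members (66.0%), against 9.02% of tested genes. Letters alone do not show a bound site. The 120 bases before the start of 8 members follow, 5′ to 3′ in the direction of transcription, with CHR and CCAAT letters on either strand in capitals. PLK1, KIF20A, GTSE1, CDC20 and MKI67 fell after deprivation, NCAPG and KIF18A rose, and CCNB1 is the partner of CDK1.
PLK1: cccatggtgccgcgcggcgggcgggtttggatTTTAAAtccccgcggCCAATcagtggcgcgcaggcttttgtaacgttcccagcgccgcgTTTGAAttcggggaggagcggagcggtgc
KIF20A: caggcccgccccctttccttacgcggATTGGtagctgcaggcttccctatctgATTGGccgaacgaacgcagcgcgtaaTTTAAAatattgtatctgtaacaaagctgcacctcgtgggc
GTSE1: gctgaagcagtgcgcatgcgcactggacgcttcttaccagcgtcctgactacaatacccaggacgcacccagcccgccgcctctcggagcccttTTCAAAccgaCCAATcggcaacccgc
CDC20: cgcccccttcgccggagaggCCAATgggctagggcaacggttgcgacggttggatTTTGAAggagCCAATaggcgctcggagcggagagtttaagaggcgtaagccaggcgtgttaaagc
MKI67: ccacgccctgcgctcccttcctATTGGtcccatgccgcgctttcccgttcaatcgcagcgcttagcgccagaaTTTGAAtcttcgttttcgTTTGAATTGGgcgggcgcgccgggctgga
CCNB1: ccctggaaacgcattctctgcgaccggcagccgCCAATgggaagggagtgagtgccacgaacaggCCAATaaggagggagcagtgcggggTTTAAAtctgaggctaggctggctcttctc
NCAPG: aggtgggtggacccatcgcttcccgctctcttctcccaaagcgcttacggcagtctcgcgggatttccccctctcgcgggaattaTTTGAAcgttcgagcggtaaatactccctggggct
KIF18A: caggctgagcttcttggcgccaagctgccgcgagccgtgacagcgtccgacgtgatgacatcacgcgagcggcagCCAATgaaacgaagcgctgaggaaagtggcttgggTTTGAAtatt
The stretches lie on GRCh38.p14 at chr16:23678769-23678888 (PLK1), chr5:138178992-138179111 (KIF20A), chr22:46296750-46296869 (GTSE1), chr1:43358861-43358980 (CDC20), chr5:69167030-69167149 (CCNB1) and chr4:17810859-17810978 (NCAPG) on the plus strand and at chr10:128126424-128126543 (MKI67) and chr11:28108157-28108276 (KIF18A) on the minus strand. In all 8 a CHR element starts between 10 and 88 bases before the gene's start. PLK1 has a CCAAT box 73 bases and CHR elements 88 and 29 bases before its start, and CCNB1 has CCAAT boxes at 87 and 55 and a CHR element at 30. In MKI67 the CHR element at 29 overlaps the CCAAT box at 24, and NCAPG has a CHR element at 35 and no CCAAT letters in its stretch. All 7 members that fell and had a window held both elements in it, and of the 3 that rose and had one, 3 held a CHR element and 1 a CCAAT box.

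After 6 h without glucose 8 of the 55 members fell and 4 rose. PLK1, AURKA, CDC20, CDCA3, KIF20A, GTSE1, MKI67 and NCAPD2 fell, TTK, KIF18A, NCAPG and SMC2 rose, and the other 43 members, CCNB1, CDK1 and FOXM1 among them, did not pass. The test was limma's moderated test of deprived against control medium over all 6 libraries with the genotype as a term, adjusted over 12263 genes. Of all genes tested, 32.1% changed, 16.5% higher and 15.6% lower. The 12 of 55 members are thus a smaller share than the background. In this fit the 8 lower members are about the background share, and the 4 higher ones (7.27%) are below it. With quantile normalization, scaling to listed reads or trends removed, given below, the lower members were a larger share than the background. That difference was not tested. The median change of the members was −0.03, against 0.05 over all genes tested. With the value of each line set against its own control, 21 members were lower in all 3 lines, 9 were higher in all 3 and 25 were mixed. Over all genes tested the shares were 31.1% lower, 35.1% higher and 33.7% mixed. In 15 members every deprived library lay below every control library (23.8% of all genes tested), and in 5 every deprived library lay above (26.8%).

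**Figure D1:**
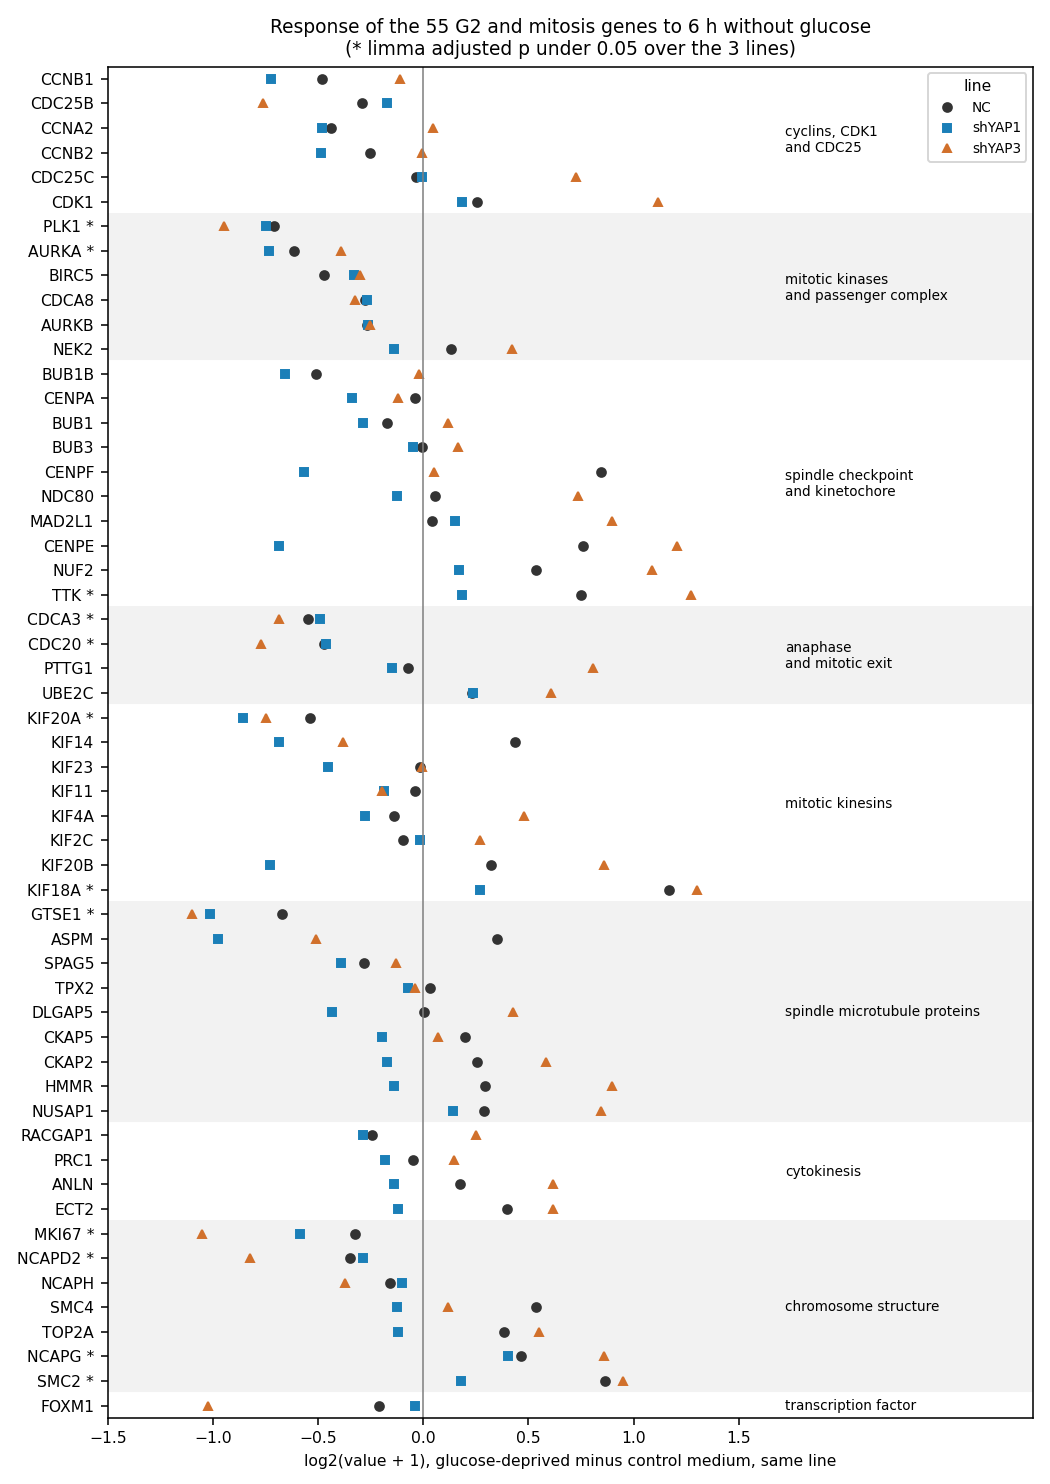
Change of each of the 55 members after deprivation in each line, as log2(value + 1) in deprived minus control medium, grouped by role; circles are NC, squares shYAP1 and triangles shYAP3, 1 library per medium each, and asterisks mark the 12 members that passed limma over the 3 lines. PLK1 and GTSE1 lie left of 0 and KIF18A and NCAPG right of 0 in every line. The shYAP1 point is the lowest in 23 of the 25 members whose lines differ in sign, a count not made over all genes tested.

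The mitotic kinases PLK1 and AURKA both fell. PLK1 (ENSG00000166851), the polo kinase of mitotic entry and spindle poles, read 164, 143 and 147 in control medium and 100.3, 84.6 and 75.8 after deprivation. AURKA (ENSG00000087586), the centrosomal aurora kinase that activates PLK1, read 99.8, 97.9 and 103 in control medium and 64.8, 58.5 and 78.3 after deprivation. For both genes the 3 deprived libraries lay below the 3 control libraries. PLK1 fell to 0.574 of its control level (log2 −0.80, SE 0.13, limma adjusted p = 0.0034), and AURKA to 0.668 (−0.58, SE 0.15, limma adjusted p = 0.018). The chromosomal passenger complex, which corrects faulty attachments, has 3 genes among the members, and none of these passed. Its kinase AURKB read 64.9, 63.8 and 63.3 in control medium and 53.8, 53.0 and 53.0 after deprivation, a separation of the groups without overlap and with little spread, yet its change of −0.26 did not pass (SE 0.12, limma adjusted p = 0.13). In limma the SE of a gene is drawn towards that of genes of like level. BIRC5, which encodes survivin, read 200.2, 182 and 195 in control medium and 144, 144 and 158 after deprivation (log2 −0.37, limma adjusted p = 0.055). CDCA8, the borealin subunit, had a change of −0.29, with no overlap between media either. NEK2, the centrosome-splitting kinase, was mixed, with changes of 0.13, −0.14 and 0.42 in the 3 lines.

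CDC20 and CDCA3 of the anaphase group fell, and their partners did not pass. CDC20 (ENSG00000117399), the activator of the anaphase-promoting complex and target of the spindle checkpoint, read 283, 249 and 238 in control medium and 204, 179.9 and 139 after deprivation. CDCA3 (ENSG00000111665), an F-box-like protein linked to the destruction of the CDK1 inhibitor WEE1, read 41.7, 41.0 and 40.3 in control medium and 28.3, 28.9 and 24.7 after deprivation. Both were lower in every deprived library than in any control library, at 0.674 (log2 −0.57, SE 0.14, limma adjusted p = 0.019) and 0.672 of control (−0.57, SE 0.13, limma adjusted p = 0.013). UBE2C, the ubiquitin-conjugating enzyme of the same complex, read 132, 142 and 130.0 in control medium and 155, 168 and 198 after deprivation. Its deprived libraries were all above its controls, with a change of 0.36 (limma adjusted p = 0.070). PTTG1, the securin that CDC20 marks for destruction, read 73.8, 78.1 and 78.9 in control medium and 70.1, 70.5 and 139 after deprivation: only the shYAP3 deprived library stands out, and its change of 0.20 did not pass (limma adjusted p = 0.53).

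No member of the cyclin, CDK1 and CDC25 group passed. CCNB1 (ENSG00000134057), cyclin B1, read 337, 332 and 350.0 in control medium and 241, 201 and 324 after deprivation. Its deprived values were all below its controls, the shYAP3 one by little (log2 −0.44, SE 0.18, limma adjusted p = 0.093). CDK1 (ENSG00000170312), the kinase that cyclin B1 activates, read 175, 223 and 202 in control medium and 209, 253 and 438 after deprivation, the highest in the shYAP3 deprived library (0.52, SE 0.21, limma adjusted p = 0.082). CCNA2, cyclin A2, read 159, 169 and 159.9 in control medium and 117, 121 and 165 after deprivation, lower in NC and shYAP1 cells and level in shYAP3 cells (−0.29, limma adjusted p = 0.17). CCNB2 had a change of −0.25. The phosphatases that activate CDK1 differed in sign, CDC25B at −0.41 with no overlap between media (limma adjusted p = 0.070) and CDC25C at 0.23. CDC25B read 138, 116 and 127 in control medium and 112, 103 and 74.2 after deprivation. CDC25C read 17.6, 17.6 and 19.5 in control medium and 17.1, 17.5 and 33.0 after deprivation, so that only the shYAP3 deprived library stands out.

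Among the kinesins KIF20A fell and KIF18A rose. KIF20A (ENSG00000112984), which carries the passenger complex to the midzone in anaphase, read 150.0, 131 and 142 in control medium and 103, 71.9 and 84.1 after deprivation. KIF18A (ENSG00000121621), which damps chromosome movements at the plus ends of kinetochore fibres, read 28.0, 44.5 and 48.4 in control medium and 64.3, 53.8 and 121 after deprivation. The media did not overlap for either gene. KIF20A fell to 0.61 of control (log2 −0.71, SE 0.14, limma adjusted p = 0.0070), whereas KIF18A rose 1.88-fold (0.91, SE 0.26, limma adjusted p = 0.027), by 1.17, 0.27 and 1.3 in the 3 lines. KIF11, the motor that pushes spindle poles apart, read 79.4, 87.0 and 93.0 in control medium and 77.2, 76.4 and 81.0 after deprivation, a change of −0.14 (limma adjusted p = 0.41). KIF2C (0.05), KIF4A (0.02) and KIF23 (−0.16), a microtubule depolymerase, a chromosome-bound kinesin and a subunit of centralspindlin, did not pass. KIF2C read 161, 157 and 153 in control medium and 150.4, 155 and 185 after deprivation. KIF20B (0.15) and KIF14 (−0.21), which act in cytokinesis, differed in sign between lines.

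Of 10 spindle checkpoint and kinetochore genes 1 rose, TTK, and 0 fell. TTK (ENSG00000112742), the MPS1 kinase that starts the checkpoint signal, read 40.7, 81.8 and 72.4 in control medium and 69.3, 93.2 and 177 after deprivation. It was higher in each line than in its own control and rose over the 3 lines (log2 0.74, SE 0.22, 1.67-fold, limma adjusted p = 0.030), but the NC deprived value lies below both shYAP control values. NUF2 and NDC80 form the microtubule-binding arm of the kinetochore. NUF2 read 32.6, 46.2 and 47.8 in control medium and 47.8, 52.1 and 103 after deprivation (0.60, limma adjusted p = 0.066), and NDC80 had a change of 0.22. The checkpoint proteins BUB1 (−0.11), BUB1B (−0.40), BUB3 (0.04) and MAD2L1 (0.36) did not pass, at limma adjusted p from 0.084 to 0.85. BUB1, the kinase that marks centromeres for the checkpoint, read 179, 191 and 189 in control medium and 158, 156 and 205 after deprivation, with only shYAP3 higher after deprivation. The centromeric histone CENPA had a change of −0.17, and the kinetochore motor CENPE of 0.43, with 0.76, −0.68 and 1.20 in the 3 lines. CENPF, a large kinetochore and nuclear matrix protein, read 201, 364 and 426 in control medium and 362, 245 and 441 after deprivation, higher after deprivation in NC cells, lower in shYAP1 cells and level in shYAP3 cells (0.11, limma adjusted p = 0.78).

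GTSE1 had the largest fall of the 55 members, and it was the 1 spindle protein of 9 that passed. GTSE1 (ENSG00000075218), a microtubule-binding protein of G2 and mitosis, read 70.1, 62.4 and 66.0 in control medium and 43.6, 30.4 and 30.2 after deprivation. Its level fell to 0.525 of control with no overlap between media (log2 −0.93, SE 0.14, limma adjusted p = 0.0026). TPX2, the spindle factor that activates AURKA, read 295, 285 and 287 in control medium and 302, 271 and 279 after deprivation, flat across all 6 libraries (−0.03, limma adjusted p = 0.89). NUSAP1 (0.43), HMMR (0.35) and CKAP2 (0.22), microtubule-binding proteins of the spindle, had positive changes, and SPAG5, astrin, a negative one (−0.27). DLGAP5 (−0.002), a stabilizer of kinetochore fibres, and CKAP5 (0.02), a microtubule polymerase, averaged near 0. ASPM, a spindle-pole protein, read 37.8, 69.7 and 87.7 in control medium and 48.5, 34.9 and 61.3 after deprivation: higher after deprivation in NC cells and lower in both shYAP lines (−0.38, limma adjusted p = 0.29).

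None of the 4 cytokinesis genes passed. PRC1, which bundles midzone microtubules, ANLN, the anillin of the contractile ring, ECT2, the exchange factor that activates RhoA, and RACGAP1, its centralspindlin partner, had changes of −0.03, 0.22, 0.30 and −0.09, at limma adjusted p from 0.23 to 0.89. All 4 were lower in shYAP1 cells and higher in shYAP3 cells after deprivation.

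The chromosome structure genes moved in both directions within 1 complex. Condensin, which compacts mitotic chromosomes, has the ATPases SMC2 and SMC4 at its core and NCAPD2, NCAPG and NCAPH as the further subunits of condensin I. NCAPG (ENSG00000109805) read 151, 183 and 177 in control medium and 209, 243 and 322 after deprivation. SMC2 (ENSG00000136824) read 39.1, 63.4 and 62.7 in control medium and 72.0, 71.8 and 122 after deprivation. NCAPD2 (ENSG00000010292) read 307, 260.3 and 287 in control medium and 241, 213 and 162 after deprivation. NCAPG rose 1.49-fold (log2 0.58, SE 0.15, limma adjusted p = 0.019) and SMC2 1.58-fold (0.66, SE 0.19, limma adjusted p = 0.031), whereas NCAPD2 fell to 0.713 of control (−0.49, SE 0.15, limma adjusted p = 0.037), each with no overlap between media. SMC4 (0.18) and NCAPH (−0.21) did not pass. SMC4 read 121, 165 and 175 in control medium and 176, 151 and 191 after deprivation. NCAPH read 96.9, 84.0 and 86.2 in control medium and 86.6, 78.4 and 66.3 after deprivation. In both the groups overlapped. MKI67 (ENSG00000148773), the Ki-67 protein that coats mitotic chromosomes and serves as a proliferation marker, read 889.6, 797 and 874 in control medium and 711, 531 and 420.3 after deprivation. It fell to 0.636 of control (−0.65, SE 0.17, limma adjusted p = 0.020), by 0.32, 0.59 and 1.05 in the 3 lines. TOP2A, the topoisomerase that untangles sister chromatids, read 279, 369.8 and 364 in control medium and 365, 340.2 and 533 after deprivation (0.27, limma adjusted p = 0.26).

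FOXM1 (ENSG00000111206), the forkhead factor that activates much of this program, read 95.1, 66.5 and 89.5 in control medium and 82.2, 64.7 and 43.5 after deprivation. Its change of −0.42 did not pass (SE 0.19, limma adjusted p = 0.11), and most of it lay in shYAP3 cells, at −1.02 against −0.21 in NC and −0.04 in shYAP1 cells.

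**Figure D2:**
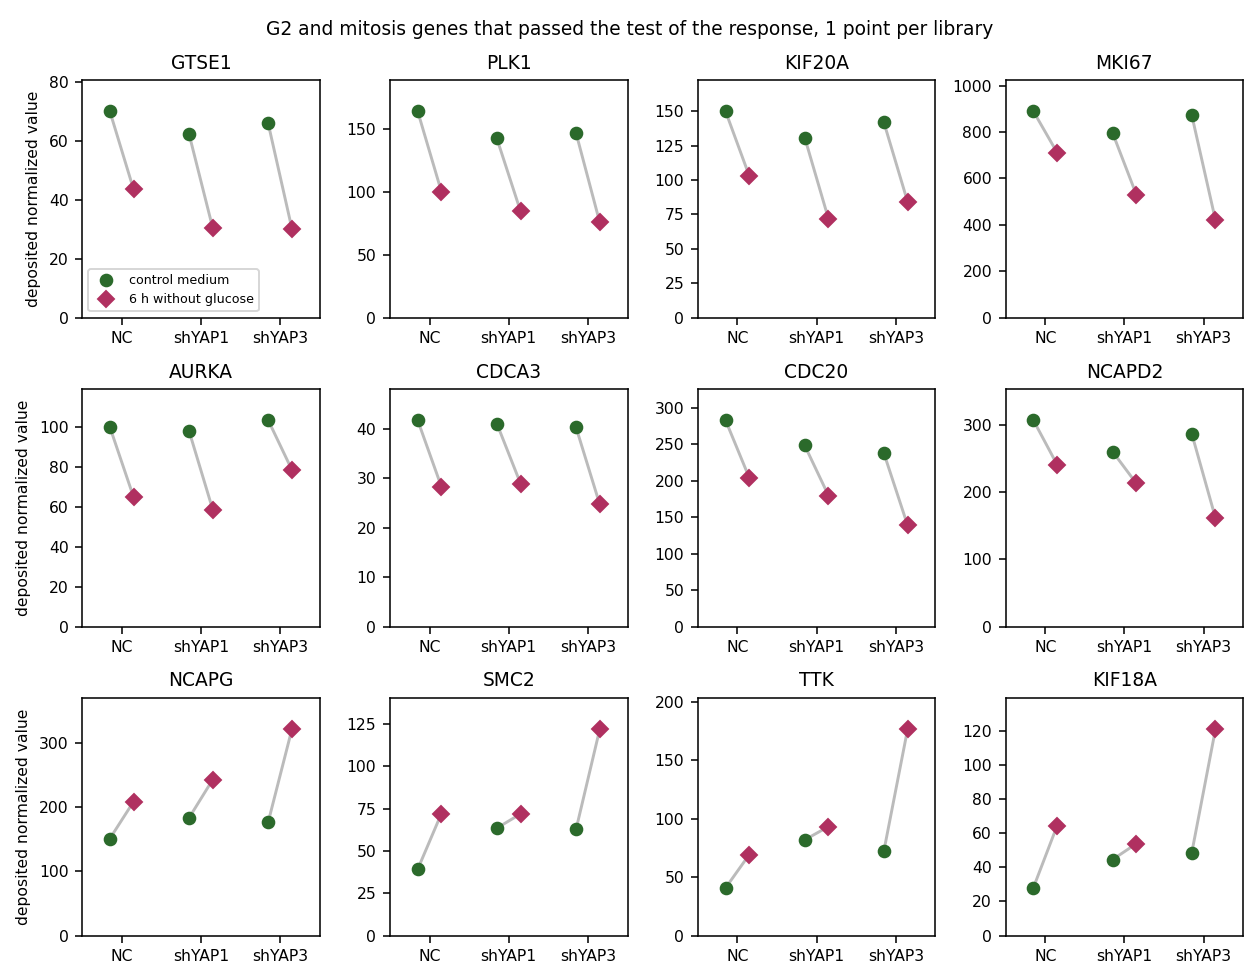
Deposited normalized values of the 12 members that passed, 1 point per library, with control (circles) and deprived (diamonds) libraries of each line joined and the value axes starting at 0. GTSE1, PLK1 and KIF20A drop in each line, whereas SMC2, TTK and KIF18A rise least in shYAP1 and most in shYAP3 cells by value.

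GTSE1 and PLK1 passed without each of the 6 libraries in turn (highest limma adjusted p = 0.030 and 0.036). KIF20A did not pass without the shYAP3 control library (adjusted p = 0.062), and MKI67 not without the shYAP1 or the shYAP3 control library (at most 0.12). The other 8 did not pass without the NC control, shYAP1 control, shYAP3 control or NC deprived library, with highest adjusted p from 0.090 for CDCA3 to 0.19 for NCAPD2. The members called higher and lower were 0 and 4 without either NC library, when 5.62% and 5.90% of all genes (NC control left out) or 5.64% and 5.90% (NC deprived left out) were called. They were 0 and 3 without the shYAP1 control library (4.59% and 4.79% of all genes) and 0 and 2 without the shYAP3 control library (3.86% and 5.0%). They were 12 and 10 without the shYAP1 deprived library (21.4% and 19.4% of all genes) and 7 and 18 without the shYAP3 deprived library (23.4% and 19.8%). With an NC library left out, only shYAP cells bear on the response. When genes of low value were kept in the fit, SMC2, TTK and KIF18A did not pass.

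As a group the members lay differently in the 3 lines, a difference that was not tested. The median change of the members was −0.04, −0.20 and 0.12 in the order of the lines, against 0.02, 0.03 and 0.04 over all genes tested. In shYAP1 cells 46 of 55 members were lower after deprivation, in NC cells 30 and in shYAP3 cells 24, against 47.2%, 47.8% and 47.4% of all genes tested. Of the listed reads of the control libraries 0.918%, 0.968% and 1.04% came from the members, and of those of the deprived libraries 0.783%, 0.684% and 0.821%, a lower share in each line. On the deposited scale 1 read is worth 0.0406 to 0.0454 in the control libraries and 0.0532 to 0.0693 in the deprived ones. When each library was scaled instead to its listed reads, the median of all genes tested moved from 0.05 to −0.24 and that of the members from −0.03 to −0.33, and 0 members passed higher and 22 lower, against 31.0% of all genes lower. NCAPG, SMC2, TTK and KIF18A did not pass on that scale, with changes that kept their sign, and the 8 that fell passed lower.

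The direction of a member went with the GC content of its transcript. The 8 members that fell had 46.6% to 57.9% GC in their longest transcript, and the 4 that rose 37.0% to 40.8%. Of the 27 members above the median of 43.2%, 8 fell (29.6%) and 0 rose, with a median change of −0.27. Of the 28 at or below it, 0 fell and 4 rose (14.3%), with a median of 0.22. Over all genes tested 15.6% fell and 16.5% rose. These shares were not split by GC content, so whether the split is particular to the members was not tested. Spearman's correlation of change and GC content over the 55 members was −0.78, −0.21 and −0.68 in the order of the lines, and over the tested genes with a GC value it was −0.33, 0.005 and −0.33. The points of a line share its 2 libraries, and the members share cell cycle regulation, so these values are descriptions. Members and all genes tested had nearly the same median transcript length, 3576 and 3725 bases, but the members were poorer in GC (43.2% against 48.6%). The part of GC content in these changes was not tested beyond fits with smooth trends on GC content and length removed from each library. The fit that also had the line as a term is given below. Without that term 4 members were higher and 17 lower, against 18.5% of all genes higher and 18.5% lower. The 8 that fell kept their sign and NCAPD2 did not pass (limma adjusted p = 0.088), while AURKB, BIRC5, BUB1B, CCNA2, CCNB1, CCNB2, CDCA8, CENPA, DLGAP5 and KIF11 also passed lower. With quantile normalization 4 were higher and 15 lower, against 14.8% of all genes higher and 17.6% lower.

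**Figure D3:**
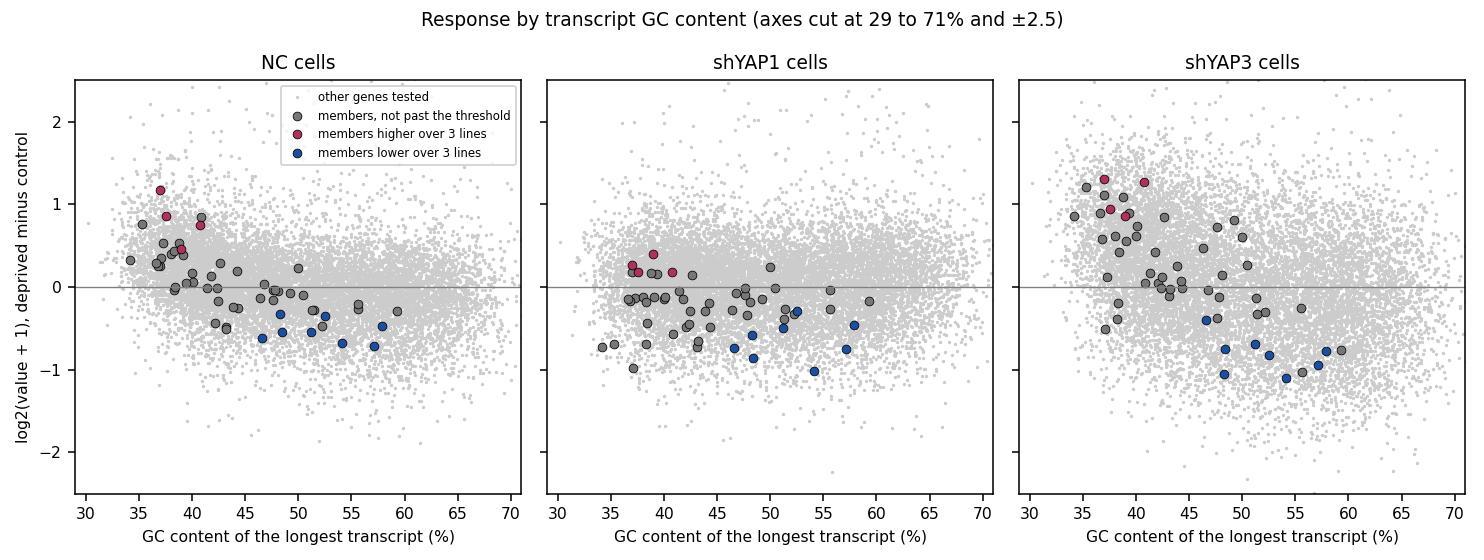
Change after deprivation, log2(value + 1) in deprived minus control medium, against GC content of the longest transcript (%), 1 panel per line; small points are the other genes tested, and large points the members, coloured by their call over the 3 lines. The members that rose lie at 37.0% to 40.8% GC and those that fell at 46.6% to 57.9%, and the members slope downward in NC and shYAP3 cells more than in shYAP1 cells.

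No member passed for the knockdown of YAP. In limma over both media 0 of 55 members passed, and of all genes tested 0.00815%, which is YAP1 alone. edgeR and DESeq2 on recovered reads called 0 members as well, and at an unadjusted p under 0.05 limma had 5 members (9.09%), TTK, SMC2, NUF2 and DLGAP5 higher and FOXM1 lower, a share near the 7.32% of all genes tested. Over both media TTK had the largest difference of shYAP from NC cells, 0.89, with 0.90 in control medium and 0.88 after deprivation (limma adjusted p = 0.58 over both media). NC cells read 40.7 and 69.3 for TTK, below the shYAP values of the same medium. BUB3, NDC80, TTK, DLGAP5 and HMMR lay higher in all 4 shYAP libraries than in both NC libraries (4.83% of all genes tested), and NCAPH, KIF23 and TPX2 lower (6.04%). Among the members above the median GC content the median knockdown difference was −0.06, and among the others 0.32. Of these others 27 of 28 were positive, against 48.65% of all genes tested. No share was taken over other GC-poor genes, and all 28 signs rest on the same NC libraries. In control medium 36 of 55 members (65.5%) were higher in shYAP than in NC cells and after deprivation 34 (61.8%), against 45.0% and 49.7% of all genes tested. The differences of GTSE1 (−0.32), CDC20 (−0.29), MKI67 (−0.34) and PLK1 (−0.25) did not pass either (limma adjusted p = 0.58 for each), nor did DLGAP5, which read 84.8, 122 and 115 in control medium and 84.9, 90.4 and 155 after deprivation.

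No member passed for a response that differed between shYAP and NC cells. In the test of the difference between the shYAP and NC responses 0 members and 0% of all genes tested passed in limma. At an unadjusted p under 0.05 there were 1 member, KIF14, and 111 genes in all (0.905%). edgeR and DESeq2 on recovered reads called 0 members. KIF14 read 34.5, 65.0 and 69.2 in control medium and 47.1, 40.0 and 52.9 after deprivation, higher after deprivation in NC cells and lower in both shYAP lines, a difference of −0.97 (SE 0.34, limma adjusted p = 1.0). ASPM (−1.09, SE 0.49) and CENPF (−1.11, SE 0.50) had differences of the same sign. For these 3 genes the control values were 0.94 to 1.03 higher in shYAP than in NC cells, and the deprived values within 0.14. They have long, GC-poor transcripts, of 7274, 10887 and 10307 bases and 38.3%, 37.1% and 40.8% GC. MAD2L1, a checkpoint protein that holds CDC20 inactive, had the smallest p of the positive differences (0.48, SE 0.37). It read 172, 192 and 146 in control medium and 178, 214 and 273 after deprivation, the highest in the shYAP3 deprived library. NC cells have 1 library per medium here and are assumed to vary as the shYAP libraries do. Without the shYAP1 deprived library 9 members passed higher and 5 lower, against 12.5% and 9.80% of all genes tested. Without the shYAP3 deprived library 0 and 8 passed, against 0.677% and 1.52%, and without either shYAP control library 0 and 0. ASPM, CENPF and KIF14 were called in both fits that lack a deprived library. Both fits rest on the same NC control library, and the difference could not be fitted without it.

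**Figure D4:**
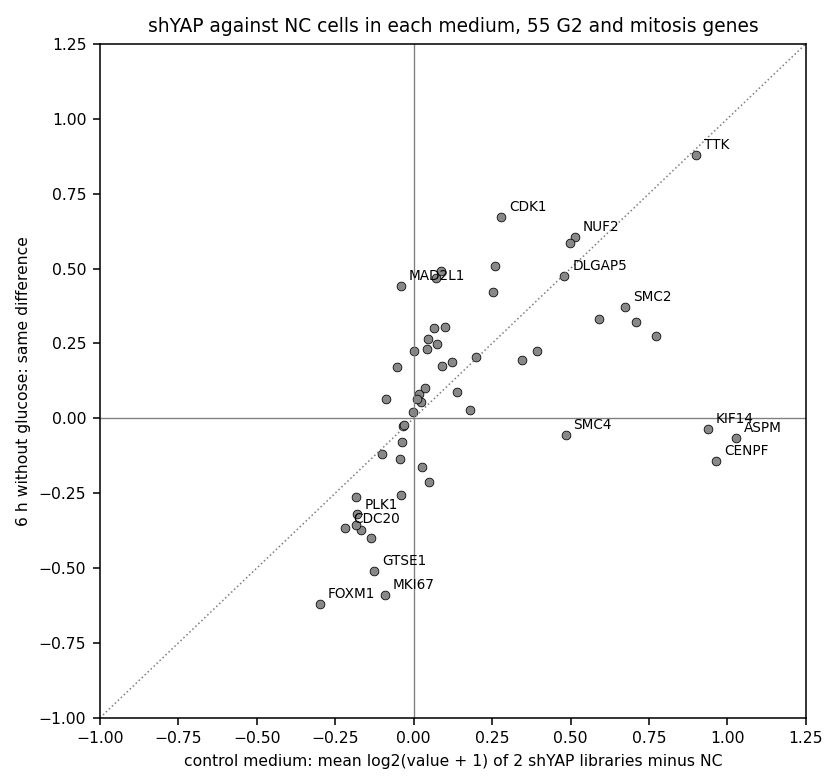
Difference of shYAP from NC cells for each member in control medium (x) and after 6 h without glucose (y), each the mean log2(value + 1) of the 2 shYAP libraries minus the NC library; the dotted line marks equal differences. TTK lies near 0.9 on both axes and FOXM1, GTSE1 and MKI67 below 0 on both, while KIF14, ASPM and CENPF lie far right and near 0 on the vertical axis.

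In shYAP cells alone, with 2 libraries per medium, GTSE1, PLK1, KIF20A and MKI67 fell and 0 members rose, against 5.90% of all genes tested lower, 5.62% higher and 11.5% in all. Their log2 changes were −1.06, −0.85, −0.80 and −0.82 (limma adjusted p = 0.024, 0.034, 0.039 and 0.047). With the line as a block 5 rose, CDK1, KIF18A, NCAPG, NUF2 and TTK, and 5 fell, ASPM and these 4, against 14.6% of all genes tested higher and 12.7% lower. The calls higher and lower were 0 and 0 without the shYAP1 control library (1.35% and 0.987% of all genes) or the shYAP3 control library (1.04% and 0.873%). They were 22 and 14 without the shYAP1 deprived library (33.8% and 30.0% of all genes) and 3 and 23 without the shYAP3 deprived library (23.8% and 19.4%). In NC cells, which have no replicate and no test, the same 4 genes had log2 differences of −0.67, −0.71, −0.54 and −0.32.

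The 2 constructs did not differ in any member by the test, 0 of 55 against 0.155% of all genes tested, and edgeR and DESeq2 called 0 members too. The test has 1 residual degree of freedom. Of the 55 members 45 (81.8%) were higher in shYAP3 than in shYAP1 cells averaged over both media, against 47.5% of all genes tested. The median of the members was 0.24, against −0.02 over all genes tested. Members were not counted for each medium apart. In control medium shYAP3 was above shYAP1 for ASPM and CENPF, but not for CDK1, TTK, TOP2A and NCAPG, among others. An unadjusted p under 0.05 was reached by 9 members (16.4%), against 5.65% of all genes. KIF18A (0.64, SE 0.24), CENPE (0.58, SE 0.24), ASPM (0.56, SE 0.24), KIF20B (0.55, SE 0.24) and HMMR (0.55, SE 0.25) had the smallest p, at limma adjusted p from 0.66 to 0.84. KIF20B, a kinesin of late cytokinesis, read 40.4, 66.9 and 56.1 in control medium and 50.8, 40.0 and 103 after deprivation. HMMR, a spindle-pole protein, read 71.2, 100.1 and 102 in control medium and 87.5, 90.8 and 191 after deprivation. CENPE read 19.5, 38.8 and 29.9 in control medium and 33.7, 23.8 and 70.2 after deprivation. For all 3 the shYAP3 deprived library is the highest of the 6, and in control medium shYAP3 is not above shYAP1 for KIF20B and CENPE. CDC20 (−0.22), CDC25B (−0.17) and NCAPD2 (−0.13) had the smallest p of the members lower in shYAP3 cells.

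Several genes that restrain the cycle rose. Of 16 tested CDK inhibitors and G2 checkpoint genes 7 rose (43.8%, against 16.5% of all genes tested) and 0 fell (against 15.6%), with a median of 0.35 against 0.05. This list and those below were chosen with earlier results of these data known, so their shares are descriptions only. GADD45A (ENSG00000116717), a stress protein that inhibits CDK1, read 32.4, 33.5 and 27.6 in control medium and 155, 151 and 161 after deprivation. GADD45B, its paralog, rose 4.81-fold and PLK3, a stress-responsive polo kinase, 3.92-fold (limma adjusted p = 0.00016 and 0.0002). CDKN1A, the CDK inhibitor p21, chosen after its value was seen, read 93.0, 121 and 80.9 in control medium and 178, 288 and 206 after deprivation (log2 1.17, limma adjusted p = 0.0041). In these 4 genes the deprived values lay above all controls. The other CDK inhibitors of the list, CDKN1B (0.03), CDKN1C (0.11), CDKN2D (0.08) and CDKN2C (−0.56), did not pass. Of 22 MuvB, E2F and NF-Y regulators 3 rose and 2 fell, with a median of 0.08. E2F2 (−1.01) and E2F3 (−0.56), activators of S phase and mitotic genes, fell, and the NF-Y subunit NFYA rose (0.49), with limma adjusted p from 0.0097 to 0.018. These shares, 13.6% and 9.09%, are below those of all genes. Of 17 genes of the anaphase-promoting complex 3 rose, ANAPC10 (0.89), FBXO5 (0.68), its interphase inhibitor, and UBE2S (0.48), and 0 fell, with a median of 0.26. The 17.65% that rose is near the 16.5% of all genes tested, of which 15.6% fell.

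Of 31 further kinetochore and checkpoint genes 10 rose (32.3%) and 3 fell (9.68%), with a median of 0.36. MLF1IP (now CENPU, log2 1.07) and MIS12 (1.0), kinetochore proteins that sit beneath the NDC80 arm, rose, and INCENP (−0.89), the scaffold of the passenger complex, fell (limma adjusted p = 0.0045, 0.0062 and 0.0070). INCENP read 111, 91.0 and 95.9 in control medium and 66.7, 58.3 and 38.4 after deprivation. Its partners in the complex, AURKB, BIRC5 and CDCA8, had changes of −0.26, −0.37 and −0.29 that did not pass. Of 32 further spindle, centrosome and cytokinesis genes 2 rose (6.25%) and 7 fell (21.9%), with a median of −0.04, NEK7 (0.93) higher and NEK9 (−0.73) and FAM83D (−0.68) lower among them. Transcript GC content was 59.6% for INCENP and 38.3% for MLF1IP, but 51.5% for GADD45A and 58.1% for CDKN1A, which rose.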

How the data were processed

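The deposited table gives 1 normalized signal per gene for each of the 6 libraries. Per the labels' protocols, mRNA was selected with oligo-dT beads and fragmented, and hg19, Bowtie2 and BWA are named, per the submitters' processing notes, with no role. The read counter, annotation, strand setting and scaling are not given in the sources used here, so antisense transcripts cannot be told apart. In each library 100% of the deposited signal values above 0 were whole multiples of 1 read (tolerance 0.01 read), and whole reads were recovered, on which edgeR called 1856 genes higher and 1992 lower after deprivation, against 2018 and 1918 in limma. The 12263 genes that reached a value of 1 in 2 or more libraries were tested, every member among them.

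The main test was that of limma 3.58.1 in R 4.3.3, fitted to log2(value + 1) with its trend option, with Benjamini-Hochberg adjustment over all genes tested and a threshold of 0.05. edgeR (4.0.16) and DESeq2 (1.42.0) on recovered reads, other scalings, pseudocount 0.1, no filter, no trend, trend removal, a line block and leaving out each library were alternatives. The model with genotype and medium has 3 residual degrees of freedom. Libraries of 1 line are paired by their labels, and their deviations from the medium mean correlated at 0.46, 0.01 and 0.33 in NC, shYAP1 and shYAP3 cells. The fits were tested on simulated data. Transcript length and GC come from the longest transcript of a gene in GENCODE v29 (GRCh38, another build than hg19), found for all 55 members and 98.0% of genes.

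Members and lists were chosen with earlier results of these data known. Values per library are given for a set of 18 members chosen by role and for the 5 members with the smallest p in each direction of a comparison. From each other list the 3 genes with the smallest p are named. Other members were named to account for all, and BIRC5, also given per library, was chosen after its values were seen.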

Additional observations from a re-analysis of the deposited data

How the results depend on the processing

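The 12 calls of the response among members kept their direction in all 10 other settings and without each library. The members called lower, 8 as reported, were 15 with quantile normalization, 22 scaled to listed reads, 17 with length and GC trends removed and 19 with the replicate block and these trends removed together. Of all genes tested 17.6% were lower with quantile normalization, 31.0% scaled to listed reads and 18.5% with length and GC trends removed. The members called higher, 4 as reported, were 0 scaled to listed reads and 1 with no filter. Without each library in turn 0 to 12 members were higher and 2 to 18 lower. In shYAP cells, where 0 were higher and 4 lower, 7 were lower with quantile normalization, 18 scaled to listed reads, 12 with trends removed and 0 with no filter, and 3 were higher with DESeq2 and 5 with the replicate block. With the replicate block 14.6% of all genes tested were higher in shYAP cells. Where no share of all genes tested is given, a count says nothing particular to the members. The cause of these shifts was not tested. Leaving out 1 library gave 0 to 22 higher and 0 to 23 lower there, 0 to 9 and 0 to 8 in the difference between genotypes, and 0 and 0 in the knockdown. With the replicate block 5 members were higher and 8 lower in the response, NUF2 being added, and 0 differed between genotypes. On recovered reads edgeR called 4 higher and 9 lower and DESeq2 6 and 10, all 12 reported members among them each time.

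Members not called in the response changed sign in 8 of 43 cases with quantile normalization, 15 scaled to listed reads and 9 with trends removed. The constructs could not be compared without a shYAP library, nor the genotypes without an NC library. Leaving out a shYAP library leaves 1 sample in an arm, assumed to vary like the other groups. Every listed gene has reads in the NC control library, and up to 942 have 0 in another, so genes silent in that library were not analysed here.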

Other observations

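Of 47 tested genes of S phase and DNA replication, the phase before G2, 8 rose and 3 fell. The 17.0% that rose is near the 16.5% of all genes tested, and the 6.38% that fell is below their 15.6%, with a median log2 change of −0.0002. Their share of a library's reads was 0.670%, 0.618% and 0.619% for control libraries and 0.565%, 0.563% and 0.525% for deprived ones, in the order NC, shYAP1 and shYAP3. CDC6, which loads the replicative helicase, rose 1.66-fold and read 145, 144 and 110.4 in control medium and 244, 213 and 204 after deprivation. GINS1, a subunit of the helicase, had the smallest p and fell to 0.606 of control (limma adjusted p = 0.0068, and 0.0075 for CDC6), and CDC45, a further helicase subunit, rose 1.47-fold. For all 3 genes the media did not overlap.

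Cohesin, which holds sister chromatids together until anaphase, had 2 of 15 genes higher (13.3%) and 1 lower (6.67%) together with condensin II, shares below those of all genes tested. STAG2 read 62.3, 120.1 and 92.5 in control medium and 184, 199.6 and 271 after deprivation. It rose 2.41-fold and SMC3 1.75-fold (limma adjusted p = 0.002 and 0.01). ESPL1, the separase that cuts cohesin, read 97.6, 85.9 and 96.4 in control medium and 60.1, 54.7 and 38.9 after deprivation. ESPL1 fell to 0.546 of control (limma adjusted p = 0.0062). STAG2 and SMC3 have 36.6% and 38.9% GC and ESPL1 57.0%. Of the S phase genes named above GINS1, which fell, has 41.4%, and CDC6 and CDC45, which rose, 45.5% and 51.4%. Spearman's correlation of the response with GC content was −0.63 over these 15 genes and −0.08 over the 47 of S phase.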
